A study of Mus musculus with 12 samples.

Results

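The expression arrays of late *Terc*-/- (KO) cells, taken at day 15 of differentiation, were set against those of wild-type (WT) cells taken at day 8. The 4 arrays were chosen by their sample titles alone, 2 of KO cells at day 15 and 2 of WT cells at day 8, out of 12 in the series. The comparison asks whether late KO cells read like younger WT cells or whether they differ from WT cells of either day. The remaining groups of the later days, WT cells at day 15 and KO cells at day 8 with 2 arrays each, served as the course against which the likeness was read. KO cells lack *Terc*, the RNA template of telomerase, and the day 0 labels place them in generation G3/4 of *Terc* deficient breeding, whereas the labels of the later days say only that *Terc* was knocked out. All cells are C57BL/6 ES cells that were kept on mitomycin-treated embryonic fibroblasts, aggregated into embryoid bodies in hanging drops without LIF, and then grown attached in wells. The 4 day 0 arrays come from 4 different lines, but the sources name no lines for the later arrays. Whether the 2 replicates of a group are separate lines or cultures is not given either, so the p-values measure only the spread between these samples.

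Embryoid bodies pass through stages that resemble the early embryo. ES cells leave naive pluripotency for an epiblast-like state, some then switch on genes of the primitive streak for a short time, and mesoderm, endoderm and ectoderm derivatives follow. In such cultures pluripotency and streak genes therefore go down with time, while genes of stromal, blood, endothelial and epithelial cells come up. Telomerase adds repeats to chromosome ends, and without its RNA the repeats are lost over cell divisions and over generations of breeding.

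Each array, an Affymetrix 430 2.0 mouse array, reports an intensity per probe set, a set of short oligonucleotides designed against a transcript. After the manufacturer's controls were removed, 45037 probe sets were tested, and 18193 genes were each represented by their brightest probe set among those assigned to that gene alone. *Terc* had no such probe set and was not analysed here. The median intensities of the 8 later arrays lay between 50.6 and 53.1. The 4 day 0 arrays had medians of 114 to 117, were scaled apart, and entered the fits only as an alternative. Precision was limited by having 2 arrays in a group. The cells are a mixture, so that fewer cells of a type and less RNA per cell cannot be told apart.

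Late KO cells were closer to WT cells of day 8 than to WT cells of their own day. Across the 45037 probe sets, the log2 intensities of the 4 pairs of a KO day 15 and a WT day 8 array had Pearson r values of 0.985 to 0.989. The 4 pairs of a KO day 15 and a WT day 15 array gave 0.967 to 0.982. In root mean square log2 difference, KO day 15 arrays lay 0.355 to 0.415 from WT day 8 arrays and 0.446 to 0.586 from WT day 15 arrays. WT cells themselves were 0.423 to 0.630 apart between day 15 and day 8. These values run across genes, which are not independent replicates, and they carry no test.

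The closest arrays to late KO cells were not WT arrays but those of KO cells at day 8. These 4 pairs gave r values of 0.990 to 0.992 and distances of 0.290 to 0.324, so that the KO day 15 arrays lay nearer their own genotype a week earlier than any WT array. At day 8 the KO arrays were 0.332 to 0.416 from the WT arrays of that day, which is about the distance of the KO day 15 arrays. By Spearman correlation with the day 0 arrays, KO cells at day 15 gave 0.861 to 0.873, WT cells at day 8 gave 0.856 to 0.875, WT cells at day 15 gave 0.826 to 0.850, and KO cells at day 8 gave 0.871 to 0.885. In rank order, late KO cells thus stood as near the undifferentiated cells as WT cells of day 8 did.

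The 2 WT day 8 arrays differed more from each other than the replicates of any other group. Their distance was 0.377, as large as the distances of the KO day 15 arrays from them, against 0.247 between the KO day 15 arrays, 0.326 between the WT day 15 arrays and 0.220 between the KO day 8 arrays. WT day 8 replicate 2 lay 0.526 and 0.423 from the WT day 15 arrays, and replicate 1 lay 0.630 and 0.558 from them. Replicate 2 was also the one with RNA of early red cells. The embryonic globin *Hbb-bh1* read 29.7 and 22.9 in KO day 15 cells, against 79.1 and 499 in WT day 8 cells and 873 and 909.7 in WT day 15 cells. Despite this split, the KO day 15 arrays were 0.399 and 0.370 from replicate 1 and 0.415 and 0.355 from replicate 2.

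**Figure D1:**
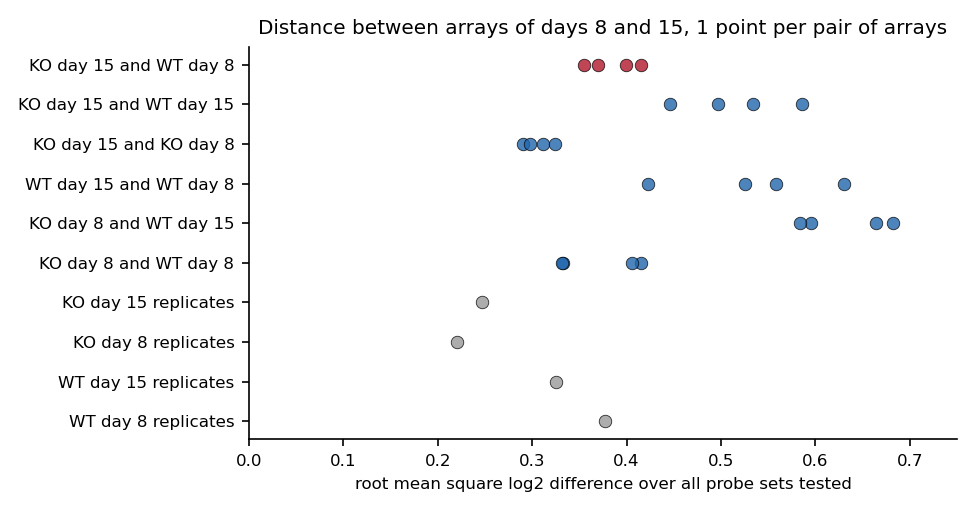
Root mean square log2 difference between pairs of arrays over 45037 probe sets, with 1 point for each pair and the pairs grouped by the 2 groups they join. Pairs of KO day 15 with WT day 8 lie between 0.355 and 0.415, below every pair of KO day 15 with WT day 15 (0.446 to 0.586) and above every pair of KO day 15 with KO day 8 (0.290 to 0.324).

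The genes that break the likeness were found with limma, in 1 fit of the 8 later arrays with Benjamini-Hochberg adjustment over all probe sets. Between KO day 15 and WT day 8, 605 probe sets (1.34%) passed an adjusted p of 0.05, 232 higher (0.515%) and 373 lower (0.828%) in KO cells. Between KO day 15 and WT day 15, 3781 probe sets (8.4%) passed, and between WT day 15 and WT day 8, 4893 (10.9%) passed. KO cells at day 15 and day 8 differed at 3 probe sets (0.00666%), with 3725 at an unadjusted p under 0.05, and KO and WT cells at day 8 differed at 294 (0.653%). With only the 4 arrays of KO day 15 and WT day 8 in the fit, the 605 became 36 higher and 23 lower. With only the 4 KO arrays in the fit, the 3 became 656 higher and 617 lower. These comparisons share arrays, so the counts are given side by side and not as independent evidence.

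The calls rest on having both KO day 15 arrays. Without KO day 15 replicate 1, 0 probe sets exceeded WT day 8 cells and 1 was below them, and without replicate 2 the numbers were 2 and 3. Of the 46 passing genes among the 140 named by rule, 45 no longer passed without replicate 1 (adjusted p 0.11 to 0.42), the exception being *Mest*, and 44 no longer passed without replicate 2 (adjusted p 0.098 to 0.23), the exceptions being *Mest* and *Pcsk5*. Without 1 of the WT day 8 arrays the counts went the other way, to 462 higher and 757 lower without replicate 1 and to 475 and 1026 without replicate 2. Without either KO day 8 array 74 were higher and 105 lower and 27 of the 46 no longer passed, and without 1 of the WT day 15 arrays 237 or 240 were higher and 333 or 336 lower. None of the 46 changed direction in these fits. Of 9 further alternative fits, 1 held only the 4 arrays compared and the others left out no array. In these 9 fits, 12 of the 46 passed in every fit that held them and 9 (*Bmp2*, *Cdh11*, *Cdh2*, *Foxf1*, *Nefm*, *Pdgfra*, *Pdgfrb*, *Plac1* and *Wnt2*) were lost in 4 or more. In simulated data, the fit recovered 24.1% of the changes set at 1.8-fold, 38.4% of those at 2-fold and 83.7% of those at 4-fold. These changes were set only in probe sets above the median WT day 8 level, with every group otherwise at its WT day 8 mean. Recovery in dimmer probe sets was not tried. False calls numbered 2 in the median run. The real arrays had an uneven spread, with a replicate distance of 0.377 in WT day 8, against 0.220 to 0.326 in the other groups. The simulated rates may therefore not hold for KO day 15 against WT day 8. A gene that did not pass may still differ.

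Pluripotency genes were closer to their WT day 8 than to their WT day 15 levels in late KO cells. Of 14 measured naive pluripotency genes and 14 genes of general pluripotency, 0 passed against WT day 8 in limma, in either direction, with 4 higher and 2 lower naive genes and 4 higher and 0 lower general ones at an unadjusted p under 0.05. Against WT day 15, 11 and 12 of them were higher in late KO cells, where 5.61% of all genes were higher and 5.82% lower. *Pou5f1*, which encodes the pluripotency factor Oct4, read 2259 and 1909 in KO cells at day 15, against 2090.5 and 1165 in WT cells at day 8 and 108 and 281 in WT cells at day 15. The KO and WT day 8 ranges overlapped, whereas both WT day 15 arrays were far below. The log2 difference from WT day 8 was 0.41 with a 95% interval of -0.65 to 1.48, and from WT day 15 it was 3.58 (adjusted p = 0.0062).

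*Nanog*, a homeobox factor of naive pluripotency, gave 1088 and 1085 in KO day 15 cells, against 1023 and 664 in WT day 8 cells and 80.4 and 199 in WT day 15 cells. Its log2 difference from WT day 8 was 0.40 (-0.52 to 1.32). *Tdgf1*, a co-receptor for Nodal, read 3438 and 2678 in late KO cells, against 3657 and 2125 in WT day 8 cells and 97.1 and 266 in WT day 15 cells. The median log2 difference from WT day 8 was 0.54 over the naive genes, of which 12 of 14 were positive, and 0.30 over the general genes, of which 11 of 14 were positive, against 0.04 over all 18193 genes. KO cells at day 8 stood above WT day 8 cells by medians of 0.98 and 0.82. The means of all 14 genes of either list were lower in KO cells at day 15 than at day 8, with 0 passing, so that the late KO levels mostly lay between those of KO and WT cells at day 8.

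Genes of the primed epiblast, the stage after naive pluripotency, followed the same pattern with exceptions. Of 14 measured, 9 were higher than in WT day 15 cells, and against WT day 8 cells 0 were higher and 2 were lower. *Dnmt3b*, a de novo DNA methyltransferase, read 4003 and 3145 in KO day 15 cells, against 4129 and 2346 in WT day 8 cells and 417 and 546 in WT day 15 cells. The epiblast growth factor *Fgf5* read 1269 and 867 in KO day 15 cells, against 680.5 and 258 in WT day 8 cells and 42.6 and 41.3 in WT day 15 cells. Both late KO arrays were above both WT day 8 arrays for *Fgf5*, but the log2 difference of 1.32 (0.38 to 2.27) did not pass (adjusted p = 0.19).

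The 2 epiblast genes that were lower were *Lef1* and *Cdh2*. *Lef1*, a transcription factor of Wnt signaling, read 197 and 190.0 in late KO cells, against 362 and 421 in WT day 8 cells and 118 and 155 in WT day 15 cells (log2 difference from WT day 8 -1.01, adjusted p = 0.024). *Cdh2*, N-cadherin, read 616 and 690.4 in KO day 15 cells, against 1070.0 and 1500.1 in WT day 8 cells and 699.7 and 583 in WT day 15 cells (log2 -0.96, adjusted p = 0.037). Late KO cells had *Cdh2* within the range of the WT day 15 arrays and *Lef1* between the WT days, above both WT day 15 arrays (adjusted p = 0.95 and 0.090 against WT day 15). The *Cdh2* call was lost in 4 of the 9 alternative fits, among them quantile normalization and the fit of only the arrays compared.

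**Figure D2:**
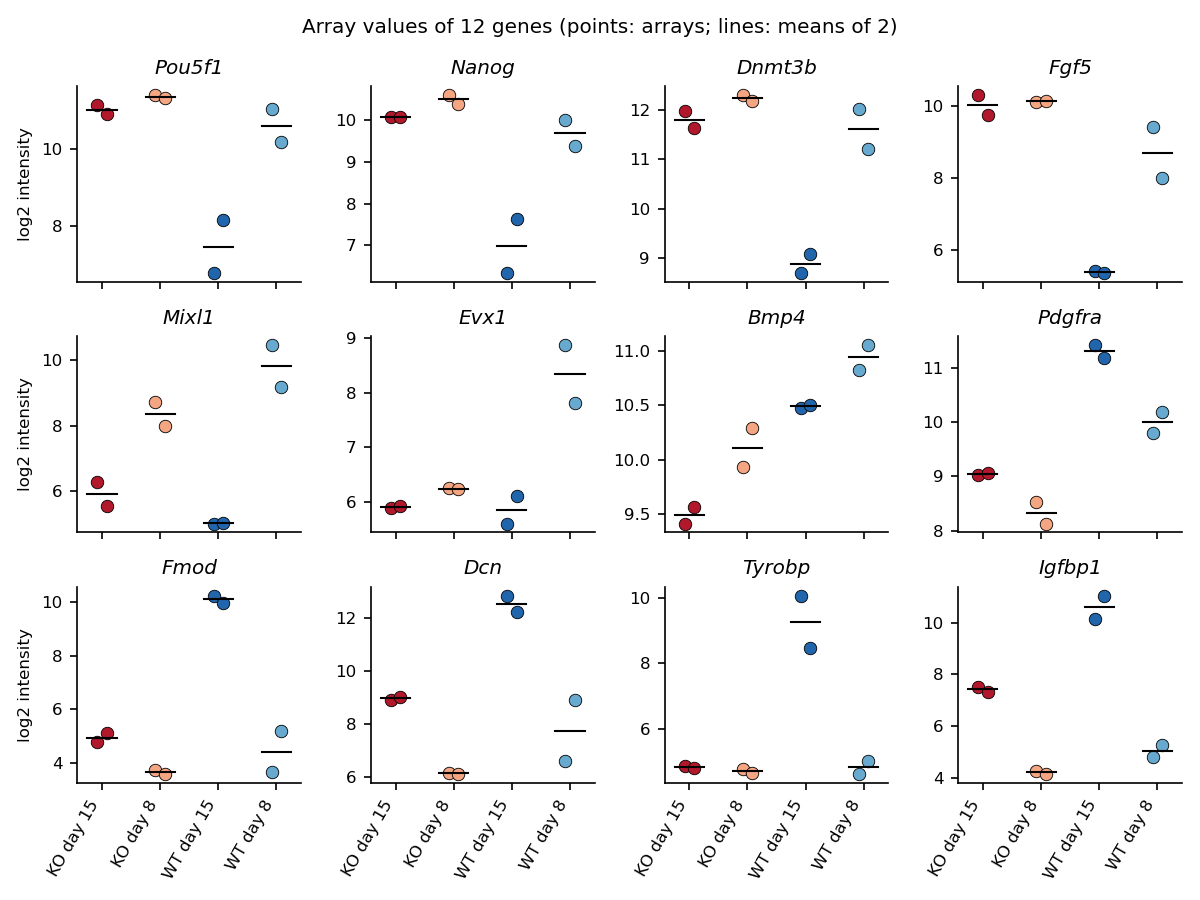
Log2 intensity of 12 genes, with 1 point for each array and a line at the mean of each group (n = 2), for KO day 15, KO day 8, WT day 15 and WT day 8 cells. *Pou5f1*, *Nanog*, *Dnmt3b* and *Fgf5* show KO day 15 at or above WT day 8 and far above WT day 15, *Fmod*, *Dcn* and *Tyrobp* show it far below WT day 15, and *Mixl1*, *Evx1* and *Bmp4* show it below WT day 8.

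Markers of cell types that came up in WT cultures by day 15 were low on the late KO arrays, as they were on the WT arrays of day 8. All 12 macrophage markers were higher in WT day 15 than in WT day 8 cells (6.76% of all genes were), and 10 of 12 were lower in KO day 15 than in WT day 15 cells. *Tyrobp*, a signaling adaptor of myeloid cells, read 28.6 and 27.4 in KO day 15 cells, against 24.4 and 32.2 in WT day 8 cells and 1082 and 354 in WT day 15 cells. The complement gene *C1qc* read 23.9 and 25.1 in KO day 15 cells, against 15.3 and 18.7 in WT day 8 cells and 534 and 210.0 in WT day 15 cells. The summed intensity of the 12 markers was 878 to 985 in late KO cells, against 471 to 698 in WT day 8 cells and 3250.1 to 7745 in WT day 15 cells. One macrophage marker did pass against WT day 8. *Cd68*, a lysosomal glycoprotein, read 194 and 213 in KO day 15 cells, against 84.3 and 96.9 in WT day 8 cells (log2 1.17, adjusted p = 0.028), and it was 406 and 267 in WT day 15 cells.

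Connective tissue genes, which also mark the fibroblast feeders of ES cell cultures, mostly read lower in late KO than in WT day 15 cells. Of 19 measured, 11 were higher in WT cells at day 15 than at day 8, and 10 were lower in KO day 15 than in WT day 15 cells. *Dcn*, the matrix proteoglycan decorin, read 482 and 527 in KO day 15 cells, against 97.9 and 479 in WT day 8 cells and 7385 and 4822 in WT day 15 cells. WT day 8 replicate 2 was at the KO level for *Dcn* and replicate 1 was well below it. *Fmod*, fibromodulin, read 27.1 and 34.2 in late KO cells, against 12.5 and 36.0 in WT day 8 cells and 1221 and 1013 in WT day 15 cells. Neither gene passed against WT day 8. The summed level of the 19 genes was 27628 to 34517 in KO day 15 cells, against 20276 to 52042 in WT day 8 cells and 92991 to 116745 in WT day 15 cells.

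The platelet-derived growth factor receptors instead passed as lower in late KO cells than in WT cells of either day, although the difference from WT day 8 was near the threshold. *Pdgfra* read 521 and 533 in KO day 15 cells, against 895 and 1164 in WT day 8 cells and 2731 and 2335 in WT day 15 cells, with log2 differences of -0.95 (adjusted p = 0.037) and -2.26 (adjusted p = 0.00063). *Pdgfrb* read 276 and 386 in KO day 15 cells, against 602 and 748 in WT day 8 cells and 1343 and 1018 in WT day 15 cells (log2 -1.04 and -1.84, adjusted p = 0.0477 and 0.0017). *Pdgfra* read 367 and 280.1 and *Pdgfrb* 192 and 215 in KO cells at day 8, below the late KO levels. The call against WT day 8 was lost in 5 of the 9 alternative fits for *Pdgfra* and in 7 for *Pdgfrb*. Both were lost with quantile normalization and with a replicate block (adjusted p = 0.063 and 0.065, and 0.0501 and 0.055). With the mean over a gene's probe sets, 0 of the 19 connective tissue genes were lower than in WT day 8 cells.

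Endothelial and visceral genes stood near the WT day 8 levels as well. Of 12 endothelial markers 0 passed against WT day 8 (2 higher and 2 lower at an unadjusted p under 0.05) and 8 were lower than in WT day 15 cells. *Cdh5*, VE-cadherin, read 49.0 and 38.9 in KO day 15 cells, against 54.4 and 62.3 in WT day 8 cells and 108 and 136 in WT day 15 cells. Of 15 yolk sac and liver proteins 0 passed against WT day 8 (1 higher and 0 lower unadjusted) and 1 was lower than in WT day 15 cells, with median log2 differences of 0.26 and -2.07. *Apoa1*, the major protein of high-density lipoprotein, read 732 and 589 in KO day 15 cells, against 306 and 425 in WT day 8 cells and 2469.7 and 5193 in WT day 15 cells. In KO cells at day 8 *Apoa1* read 104 and 152, and the difference between the KO days did not pass (adjusted p = 0.27).

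Read gene by gene, most of the WT course from day 8 to day 15 had not been covered by KO cells at day 15. Of 1229 genes that rose in WT cells over that week (6.76%), the mean of late KO cells was nearer WT day 8 for 1005 (81.8%). These were 300 genes at or behind the WT day 8 mean and 705 between the WT means but nearer day 8, and the others were 183 nearer day 15 and 41 beyond it. Of 1396 genes that fell in WT cells (7.67%), 1045 (74.9%) were nearer WT day 8, as 277 at or behind it and 768 between, while 307 were nearer day 15 and 44 beyond. KO cells at day 8 were nearer WT day 8 for 1161 (94.5%) and 1328 (95.1%) of these genes. The median position of late KO cells was 0.20 above WT day 8 for genes whose WT median change was 0.96, and -0.23 from it for genes whose WT median change was -0.78. The WT arrays of both days chose these genes, so the numbers describe levels and carry no test.

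**Figure D3:**
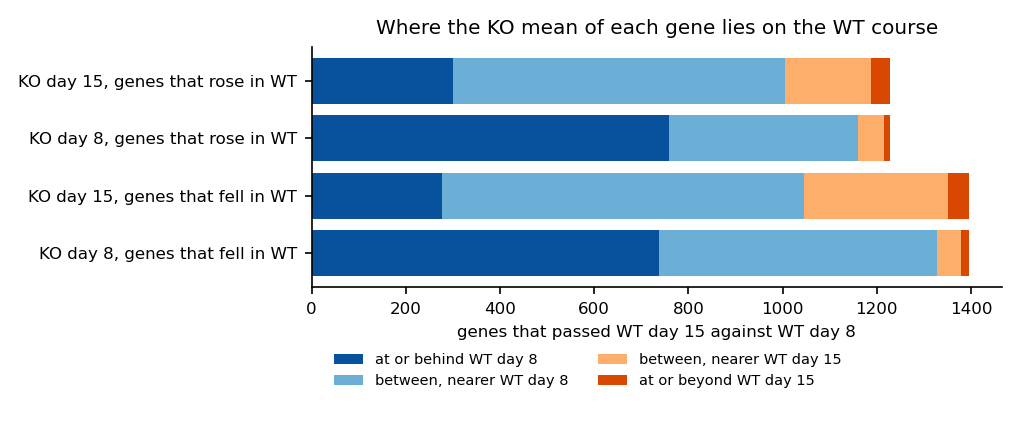
Number of the genes that rose (1229) and fell (1396) in WT cells between day 8 and day 15 (horizontal axis), by where the mean of KO cells lay on that course, for KO day 15 and KO day 8. At day 15, 81.8% of the genes that rose and 74.9% of those that fell were nearer WT day 8, against 94.5% and 95.1% in KO cells at day 8.

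Of the 8 named genes with the largest rise in WT cells, *Igfbp1* was the 1 that passed against WT day 8. It encodes a secreted binding protein of insulin-like growth factors, and read 184 and 160.4 in KO day 15 cells, against 28.2 and 38.6 in WT day 8 cells (log2 2.38, adjusted p = 0.0095) and 1144 and 2113 in WT day 15 cells (log2 -3.18, adjusted p = 0.00088). In KO cells at day 8 it read 19.3 and 17.8. It was the 1 gene of 18193 that passed as higher in KO cells at day 15 than at day 8 (0.0055%, log2 3.21, adjusted p = 0.034). The 1 gene that passed as lower in that comparison, *Crybg1*, is named after its values were seen, with 14.0 and 13.0 at day 15 against 37.8 and 34.1 at day 8. Both calls come from the fit of all later arrays. With only the KO arrays in the fit, 656 probe sets passed as higher and 617 as lower at day 15, so other genes may also have changed.

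Of the 18193 genes, 135 were higher (0.742%) and 157 lower (0.863%) in KO day 15 than in WT day 8 cells. Late KO cells lay outside both WT days, past WT day 8 and past WT day 15 in the same direction, for 75 genes above (0.412%) and 97 below (0.533%). The other 60 genes higher and 60 lower differed from WT day 8 but did not pass in that direction against WT day 15. For 20 and 21 of these the KO mean lay between the WT means, and for 40 and 39 it was at or past the WT day 15 mean.

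Primitive streak genes, unlike those of pluripotency, were in part lower in late KO cells than in WT cells of day 8. Of 13 measured, 0 were higher and 3 were lower, with a median log2 difference of -0.56, where 0.742% of all genes were higher and 0.863% lower. *Mixl1*, a homeobox gene of the streak, read 76.8 and 46.0 in KO day 15 cells, against 1413 and 575 in WT day 8 cells and 31.8 and 32.4 in WT day 15 cells. Both late KO arrays were far below both WT day 8 arrays, with a log2 difference of -3.92 (SE 0.45, adjusted p = 0.014), and slightly above the WT day 15 arrays (log2 0.89, adjusted p = 0.29). KO cells at day 8 still had 426 and 256.

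*Evx1*, a homeobox gene of the posterior streak, read 59.1 and 60.4 in KO day 15 cells, against 469 and 226 in WT day 8 cells and 48.4 and 69.0 in WT day 15 cells (log2 -2.45 and 0.05, adjusted p = 0.014 and 0.95). In KO cells at day 8 it was already at 75.7 and 75.5. *Evx1os*, the transcript opposite *Evx1*, read 54.6 and 46.3 in KO day 15 cells, against 297 and 132 in WT day 8 cells (adjusted p = 0.036). *Evx1* and *Evx1os* lie in a stretch of chromosome 6, described below, whose brighter genes had a median log2 difference of -0.70 from WT day 8. *Foxf1*, a forkhead gene of lateral mesoderm, read 54.1 and 57.2 in KO day 15 cells, against 128 and 151 in WT day 8 cells and 256 and 140.4 in WT day 15 cells, below both (log2 -1.32 and -1.77, adjusted p = 0.044 and 0.0046). Of the 3 streak genes that passed, *Mixl1* and *Evx1* did not pass against WT day 15, and *Foxf1* was below both WT days. The *Foxf1* call against WT day 8 was lost in 5 of the 9 alternative fits (adjusted p 0.051 to 0.072), and with the mean over probe sets 2 streak genes were lower and 0 below both WT days.

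Other streak genes did not pass against WT day 8, and the 2 WT day 8 arrays differed widely for them. *Mesp1*, which marks early cardiovascular mesoderm, read 47.5 and 41.0 in KO day 15 cells, against 475 and 118 in WT day 8 cells and 42.1 and 42.5 in WT day 15 cells (log2 -2.42, -3.74 to -1.11, adjusted p = 0.11). *Eomes*, a T-box factor of streak and endoderm, read 848 and 609 in KO day 15 cells, against 2902 and 1183 in WT day 8 cells and 89.2 and 118 in WT day 15 cells (log2 -1.37 and 2.81, adjusted p = 0.17 and 0.0074). *Lhx1*, a LIM homeobox gene, read 693 and 642 in KO day 15 cells, against 1518 and 604 in WT day 8 cells and 47.2 and 73.7 in WT day 15 cells (log2 -0.52 and 3.50, adjusted p = 0.60 and 0.0041). Late KO cells thus had *Eomes* and *Lhx1* above the WT day 15 level, while *Evx1* and *Mesp1* were near it.

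Several other genes were below WT day 8 in late KO cells, at or above the WT day 15 level or with no difference from it that passed. *Pmaip1*, which encodes the cell death protein Noxa, read 417 and 342 in KO day 15 cells, against 1361 and 1636 in WT day 8 cells and 391 and 738 in WT day 15 cells (log2 -1.98 and -0.51, adjusted p = 0.015 and 0.30). It was the only 1 of 11 measured p53 target genes that passed, and their median log2 difference was 0.38. *Ccne1*, cyclin E1, read 697 and 694 in KO day 15 cells, against 1349 and 1128 in WT day 8 cells and 687 and 666 in WT day 15 cells (adjusted p = 0.022 and 0.89). It was the 1 of 13 cell cycle genes that passed, and 0 of the 13 had a positive difference (median -0.31). The smooth muscle gene *Cnn1*, calponin, read 77.5 and 89.9 in KO day 15 cells, against 219 and 173 in WT day 8 cells and 40.9 and 58.2 in WT day 15 cells, and *Hoxd1* read 26.8 and 21.4 in KO day 15, 87.8 and 47.5 in WT day 8 and 24.2 and 23.6 in WT day 15 cells (adjusted p against WT day 8 = 0.025 and 0.042). *Cnn1* lay between the WT days, above both WT day 15 arrays (log2 0.77, adjusted p = 0.0466), and *Hoxd1* differed from WT day 15 by 0.00 (adjusted p = 0.99).

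Among the genes above both WT days were genes of neurons and secretory cells. *Nptx2*, a neuronal pentraxin, read 439 and 479 in KO day 15 cells, against 131 and 79.8 in WT day 8 cells and 39.8 and 63.0 in WT day 15 cells (log2 2.17 and 3.19, adjusted p = 0.015 and 0.0011). *Chga*, chromogranin A of secretory granules, read 482 and 402 in KO day 15 cells, against 134 and 66.1 in WT day 8 cells and 41.1 and 63.9 in WT day 15 cells (log2 2.23 and 3.10, adjusted p = 0.024 and 0.0023). *Nefm*, a neurofilament subunit, read 236 and 154 in KO day 15, 57.1 and 31.0 in WT day 8 and 25.1 and 47.6 in WT day 15 cells (log2 2.18 and 2.46, adjusted p = 0.042 and 0.0094). None of the 3 was new at day 15, since KO cells at day 8 had 378 and 532 for *Nptx2*, 398 and 469.6 for *Chga* and 286 and 262 for *Nefm*. *Chga* and *Nefm* were the 2 of 14 measured neuron genes that passed against WT day 8, where 0.742% of all genes were higher. The neuron list as a whole was not raised, with a median log2 difference of 0.04 and 7 of 14 differences positive. At an unadjusted p under 0.05, 3 neuron genes were higher and 2 lower.

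*Cer1*, a secreted antagonist of Nodal, BMP and Wnt, read 272 and 176 in KO day 15 cells, against 87.6 and 61.0 in WT day 8 cells and 30.6 and 31.5 in WT day 15 cells (log2 1.58 and 2.82, adjusted p = 0.019 and 0.00082). *Hhex*, a homeobox gene of anterior endoderm, read 311 and 338 in KO day 15, 142 and 122 in WT day 8 and 96.3 and 94.9 in WT day 15 cells (log2 1.30 and 1.76, adjusted p = 0.0077 and 0.00076), and was the 1 of 9 endoderm factors that passed against WT day 8. *Fzd5*, a Wnt receptor, read 531 and 589 in KO day 15, 193 and 136 in WT day 8 and 74.7 and 159 in WT day 15 cells (log2 1.79 and 2.36, adjusted p = 0.0498 and 0.0062). In KO cells at day 8 these 3 genes had read 202 and 247, 301 and 318 and 527 and 679.9, so that their levels were high on both KO days.

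The other named genes above both WT days were *Rpl39l*, *Irs4*, *Enpp3*, *Syt13* and *Pilrb1*. *Rpl39l*, a paralog of a ribosomal protein gene, read 564 and 655 in KO day 15 cells, against 143 and 100.3 in WT day 8 cells and 50.5 and 103 in WT day 15 cells (log2 2.35 and 3.07, adjusted p = 0.016 and 0.0018). *Irs4*, an insulin receptor substrate, read 993 and 1196 in KO day 15, 355 and 149 in WT day 8 and 99.9 and 139.9 in WT day 15 cells (adjusted p = 0.042 and 0.0041). *Enpp3*, an enzyme of the cell surface that cleaves nucleotides, read 944 and 641 in KO day 15, 201 and 128 in WT day 8 and 69.6 and 154 in WT day 15 cells (adjusted p = 0.037 and 0.0054). All 5 genes had log2 differences of 1.49 or more from each WT day. *Syt13*, a synaptotagmin, read 214 and 189 in KO day 15 cells, against 83.3 and 57.7 in WT day 8 cells, and *Pilrb1*, a paired immunoglobulin-like receptor, read 213 and 233 in KO day 15 cells, against 95.4 and 58.8 in WT day 8 cells.

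The maternally expressed noncoding RNAs of the *Dlk1*-*Dio3* imprinted cluster on chromosome 12 were high together. *Meg3* read 4342 and 4234 in KO day 15 cells, against 923 and 1000.5 in WT day 8 cells and 3243 and 1582 in WT day 15 cells. Its log2 difference from WT day 8 was 2.16 (adjusted p = 0.017), and that from WT day 15 was 0.92 and did not pass (adjusted p = 0.093). All 11 probe sets of *Meg3* passed against WT day 8, with log2 differences of 0.81 to 2.70. *Rian* read 643 and 551 in KO day 15 cells, against 154 and 179 in WT day 8 cells and 289 and 141 in WT day 15 cells (log2 1.84 and 1.56, adjusted p = 0.025 and 0.014), and 2 of its 4 probe sets passed. *Mirg* read 289 and 249 in KO day 15, 79.7 and 79.6 in WT day 8 and 135 and 85.0 in WT day 15 cells (log2 1.75 and 1.33, adjusted p = 0.014 and 0.011), and 1 of its 2 probe sets passed. The list of imprinted genes did not hold *Rian* or *Mirg*. Of its 17 measured genes 1, *Meg3*, was higher and 1, *Mest*, was lower than in WT day 8 cells.

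Below both WT days, *Mest* stood out by size. This paternally expressed imprinted gene of the hydrolase family read 128 and 87.0 in KO day 15 cells, against 2167 and 2929 in WT day 8 cells and 2919 and 2721 in WT day 15 cells. Its log2 differences were -4.58 (SE 0.26, adjusted p = 0.0018) and -4.74 (adjusted p = 0.00028). In KO cells at day 8 it was 161 and 254, and WT cells held about the same level on both days. *Pcsk5*, a protease that activates precursors of the TGF-β family, read 147 and 196 in KO day 15 cells, against 879.8 and 746 in WT day 8 cells and 427 and 346 in WT day 15 cells (log2 -2.26 and -1.18, adjusted p = 0.0042 and 0.0063). For *Pcsk5*, 3 of 5 probe sets passed against WT day 8 and none had the opposite sign.

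Of 21 measured BMP ligands, Smads and targets, 4 were lower and 0 higher in late KO than in WT day 8 cells, with a median log2 difference of -0.33. Of all genes 0.863% were lower and 0.742% higher. The list stood as low in KO cells at day 8, with a median of -0.32 from WT day 8 and 2 genes lower (0.539% of all genes). Between the KO days its median was 0.04. *Bmp4*, the ligand of mesoderm and epidermis induction, read 682 and 755 in KO day 15 cells, against 1818 and 2124 in WT day 8 cells and 1428 and 1449 in WT day 15 cells, below both (log2 -1.45 and -1.004, adjusted p = 0.0071 and 0.0053). *Smad6*, an inhibitory Smad that BMP signaling induces, read 193 and 276 in KO day 15, 630.2 and 477 in WT day 8 and 539 and 516 in WT day 15 cells, also below both (log2 -1.25 and -1.19, adjusted p = 0.025 and 0.0097). *Msx2*, a homeobox target of BMP, read 246 and 272 in KO day 15, 801 and 526 in WT day 8 and 172 and 219 in WT day 15 cells, and passed against WT day 8 only (adjusted p = 0.025 and 0.30). *Bmp2* read 1008 and 950.4 in KO day 15, 1613 and 1549 in WT day 8 and 528 and 659 in WT day 15 cells, between the WT days (log2 -0.69 and 0.73, adjusted p = 0.048 and 0.013). The *Bmp2* call against WT day 8 was lost in 7 of the 9 alternative fits (adjusted p 0.053 to 0.13), and with the mean over probe sets 3 genes of the list were lower.

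Neither the BMP receptors nor the secreted antagonist *Fst* passed against WT day 8. *Fst*, follistatin, which binds activin and BMPs, read 204 and 173 in KO day 15 cells, against 643 and 440.0 in WT day 8 cells and 159 and 377 in WT day 15 cells (log2 -1.502, -2.47 to -0.54, adjusted p = 0.16). The late KO values were below both WT day 8 values and within the spread of the WT day 15 values. *Bmpr1a* differed by 0.00 (-0.28 to 0.29), *Bmpr1b* by -0.05 (-0.51 to 0.41) and *Bmpr2* by -0.27 (-0.74 to 0.20) on the log2 scale. *Smad1*, a receptor-activated Smad, differed by -0.53 (-0.91 to -0.15, adjusted p = 0.19), and the inhibitory *Smad7* by -0.31 (-0.62 to 0.00, adjusted p = 0.33). *Bmp7* differed by 0.48 (0.12 to 0.85, adjusted p = 0.21).

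The other named genes below both WT days included genes of adhesion, transcription and DNA repair. *Cdh11*, a mesenchymal cadherin, read 311 and 502 in KO day 15 cells, against 1003 and 1223 in WT day 8 cells and 2636 and 1850.2 in WT day 15 cells (log2 -1.49 and -2.48, adjusted p = 0.0469 and 0.0025). *Zeb2*, a transcription factor of epithelial-mesenchymal transition, read 72.9 and 92.4 in KO day 15, 165 and 250.1 in WT day 8 and 207 and 160.2 in WT day 15 cells (adjusted p = 0.033 and 0.018), but 1 of its 5 probe sets had the opposite sign and 1 passed. *Tenm3*, a teneurin, read 402 and 516 in KO day 15, 940.4 and 1317 in WT day 8 and 1556 and 1119.9 in WT day 15 cells (adjusted p = 0.026 and 0.0042). *Eid1*, an inhibitor of the p300 acetyltransferase, read 215 and 275 in KO day 15, 503 and 663 in WT day 8 and 1285 and 1039 in WT day 15 cells (adjusted p = 0.019 and 0.00082), and all 3 of its probe sets passed. *Xpa*, a gene of nucleotide excision repair, had log2 differences of -1.20 and -1.28 (adjusted p = 0.024 and 0.0056).

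Of the Wnt ligands named, *Wnt2* was below both WT days, with 38.3 and 43.9 in KO day 15 cells, against 118 and 201 in WT day 8 cells and 489 and 241 in WT day 15 cells (log2 -1.91 and -3.07, adjusted p = 0.042 and 0.0026). *Wnt5a*, a noncanonical ligand of mesoderm, read 152 and 187 in KO day 15, 598 and 453 in WT day 8 and 266 and 306 in WT day 15 cells, and passed against WT day 8 only (log2 -1.63 and -0.76, adjusted p = 0.014 and 0.059). *Plac1*, an X-linked gene of the placenta, read 91.3 and 92.4 in KO day 15 cells, against 189 and 423 in WT day 8 cells and 146 and 153 in WT day 15 cells (log2 -1.62, adjusted p = 0.0487), and *Mpp6*, a scaffold protein, read 133 and 141 in KO day 15, 543 and 350.3 in WT day 8 and 183 and 213 in WT day 15 cells (log2 -1.67, adjusted p = 0.011).

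**Figure D4:**
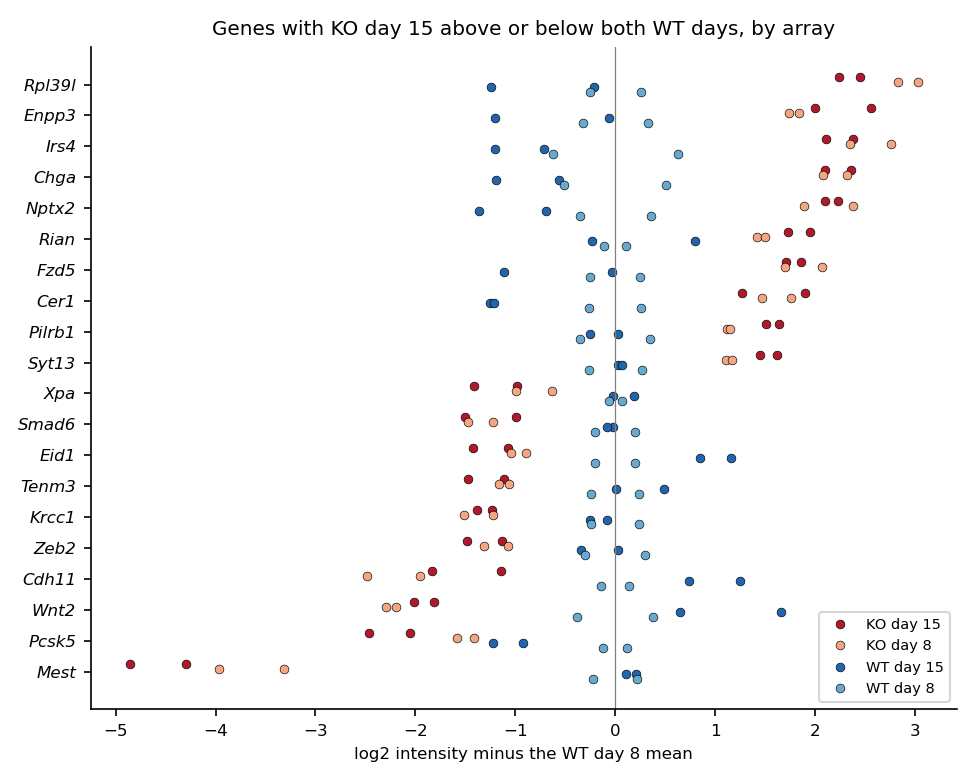
Log2 intensity of 20 named genes relative to the mean of the 2 WT day 8 arrays (horizontal axis), with 1 point for each array of KO day 15, KO day 8, WT day 15 and WT day 8 cells. The 10 upper genes lie above both WT days in late KO cells and the 10 lower ones below, with mean log2 differences from WT day 8 of up to 2.35 for *Rpl39l* and down to -4.58 for *Mest*. The WT day 8 arrays that set the zero line also entered the choice of the genes.

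The genes that were lower in late KO cells were unevenly spread over the chromosomes, a pattern noticed after the values were seen and given without a test. Of the 157 genes lower than in WT day 8 cells, 87 were on chromosome 6, which holds 996 of the 18193 genes, and 3 of the 135 higher genes were there. On each other chromosome 0 to 9 genes were lower. Over all other chromosomes, 131 of 17149 genes were higher and 70 (0.408%) lower, and 74 were above and 26 below both WT days. The count of genes below both WT days was thus mainly a count of chromosome 6.

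The lower genes lay in 1 stretch of chromosome 6. In the gene order of the RefSeq table, the first 424 measured genes of the chromosome, whose brighter members run from *Gm20559* to *Suclg1*, held 85 of the lower genes (20.05%), 0 of the higher ones and 70 of those below both WT days. The 572 genes after them, whose brighter members run from *Gcfc2* to *Resf1*, held 2 lower and 3 higher genes. Among the 224 brighter genes of the first stretch, 195 (87.1%) had a negative log2 difference from WT day 8, with a median of -0.70 and quartiles of -0.93 and -0.35. In the rest of the chromosome the median was -0.01, and among 11015 brighter genes of other chromosomes 53.5% were negative with a median of -0.02. The break was placed where it divided the values best by least squares.

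This shift was of similar size on both KO days and against both WT days. The median over the 224 genes was -0.69 against WT day 15, and -0.68 between KO and WT cells at day 8. Between KO day 15 and KO day 8 it was -0.04, and between WT day 15 and WT day 8 it was 0.03. Relative to the WT arrays, the medians of single arrays were -0.76 and -0.69 for KO day 15, -0.64 and -0.67 for KO day 8, and between -0.02 and 0.01 for the 4 WT arrays. At day 0, relative to the WT arrays of that day, the KO line F35 had a median of 0.02 and the KO line A49 one of -0.37.

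**Figure D5:**
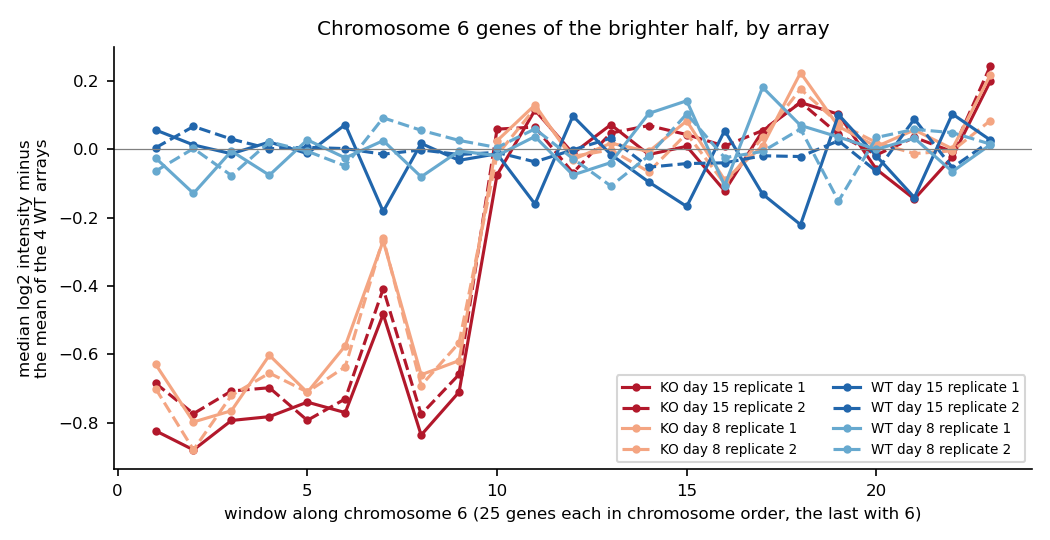
Median log2 intensity minus the mean of the 4 WT arrays (vertical axis) for each of the 8 later arrays, in windows of 25 brighter genes in their order along chromosome 6. Over the first stretch the KO day 15 arrays have medians of -0.76 and -0.69 and the KO day 8 arrays of -0.64 and -0.67, while the WT arrays stay near 0, and after it all arrays lie near 0.

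Named genes of this stretch were *Mest*, *Evx1*, *Evx1os*, *Mpp6*, *Wnt2*, *Mad2l1*, *Krcc1* and *Ezh2*. *Mad2l1*, a gene of the spindle checkpoint, read 435 and 505 in KO day 15 cells, against 1475 and 1211 in WT day 8 cells and 724 and 926 in WT day 15 cells (log2 -1.51 and -0.81, adjusted p = 0.0077 and 0.019). *Ezh2*, the methyltransferase of Polycomb complex PRC2, read 805 and 834 in KO day 15, 1961 and 1675 in WT day 8 and 1066 and 1235 in WT day 15 cells (log2 -1.15 and -0.49, adjusted p = 0.0086 and 0.0509). The PRC2 genes elsewhere in the genome did not pass, with log2 differences of -0.02 (-0.39 to 0.34) for *Eed*, -0.13 (-0.52 to 0.26) for *Suz12* and 0.23 (-0.13 to 0.60) for *Ezh1*. All 8 differences from WT day 8, -1.15 to -4.58, were larger than the median shift of the stretch. Most naming rules choose by the size or p of such differences, so larger values were favoured by the choice. The part of the shift in these differences was not tested.

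When the probe sets of chromosome 6 genes were left out and the fit was repeated, an alternative chosen after seeing the data, 164 probe sets passed as higher and 147 as lower in KO day 15 than in WT day 8 cells, and 53 were below both WT days, against 193 (0.429%) with chromosome 6. The array likeness hardly moved, with a mean r of 0.987 and distances of 0.349 to 0.409. Of the named genes not on chromosome 6, *Bmp2*, *Cdh11*, *Cdh2*, *Enpp3*, *Foxf1*, *Fzd5*, *Hoxd1*, *Irs4*, *Nefm*, *Pdgfra*, *Pdgfrb* and *Plac1* no longer passed (adjusted p 0.0507 to 0.0653).

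Epidermal genes, the lineage the study follows, stood near their WT day 8 levels in late KO cells. Of 15 measured, 0 passed against WT day 8 (median log2 0.27, with 2 higher and 0 lower at an unadjusted p under 0.05), while against WT day 15 2 were higher and 5 lower. *Krt14*, a keratin of basal epidermis, read 22.4 and 37.2 in KO day 15 cells, against 19.9 and 33.6 in WT day 8 cells and 87.2 and 92.8 in WT day 15 cells (log2 from WT day 8 0.16, -0.48 to 0.80, and from WT day 15 -1.64, adjusted p = 0.011). Its partner *Krt5* read 57.7 and 60.2 in KO day 15 cells, against 42.1 and 50.0 in WT day 8 cells and 166 and 139.7 in WT day 15 cells (log2 0.36, -0.02 to 0.74, and -1.37, adjusted p = 0.0027). *Trp63*, the transcription factor p63 of epidermal progenitors, read 22.2 and 27.0 in KO day 15, 21.9 and 18.8 in WT day 8 and 35.6 and 30.8 in WT day 15 cells, and passed neither against WT day 8 nor against WT day 15 (adjusted p = 0.49 and 0.15). On the KO day 15 and WT day 8 arrays these 3 genes were near or below the median intensity of the array.

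Neural progenitor genes had higher values in late KO than in WT day 8 cells, none of which passed. All 15 measured had positive log2 differences from WT day 8, with a median of 0.37, and 0 passed (6 at an unadjusted p under 0.05), whereas 3 were higher and 1 lower than in WT day 15 cells. *Olig2*, a bHLH factor of the neural tube, read 129 and 97.8 in KO day 15 cells, against 69.3 and 43.0 in WT day 8 cells and 14.8 and 15.6 in WT day 15 cells (log2 1.04, 0.51 to 1.57, and 2.89, adjusted p = 0.076 and 0.00078). *Zic1*, a zinc finger gene of neural ectoderm, read 100.5 and 162 in KO day 15 cells, against 50.0 and 21.4 in WT day 8 cells and 132 and 151 in WT day 15 cells (log2 1.96, 1.06 to 2.86, adjusted p = 0.062). Both late KO arrays were above both WT day 8 arrays for either gene. *Olig2* passed with a replicate block (adjusted p = 0.046), *Zic1* passed with all 12 arrays and with an offset of 32 (adjusted p = 0.036 and 0.044), and with the mean over probe sets 1 gene of the list was higher.

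In the remaining lists few genes passed. None of 11 erythroid, 15 cardiac muscle and 10 simple epithelium genes passed against WT day 8, with medians of -0.24, 0.20 and 0.23. At an unadjusted p under 0.05, 1 erythroid gene was lower, 2 cardiac muscle genes were higher and 0 epithelium genes differed. The epithelial cadherin *Cdh1* read 3281 and 2845 in KO day 15 cells, against 2311 and 2820.1 in WT day 8 cells and 772 and 1435 in WT day 15 cells, and the difference from WT day 15 passed (log2 1.54, adjusted p = 0.012). The cardiac troponin gene *Tnnc1* read 1428 and 2088 in KO day 15, 852 and 984 in WT day 8 and 760.3 and 1229 in WT day 15 cells. Of 18 Hox genes *Hoxd1* alone passed, and of 10 smooth muscle genes *Cnn1* alone. The erythroid list had a summed level of 471 to 519 in late KO cells, against 578 to 1782 in WT day 8 cells and 2047 to 2710.0 in WT day 15 cells.

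The change from day 8 to day 15 was tested against that of WT cells as an interaction, and 29 probe sets passed (0.0644%), with a KO change above the WT change for 3 and below it for 26. The 16 genes among the lower ones had WT changes of 1.57 to 4.19 and KO changes of -0.15 to 1.35 on the log2 scale. *C1qa*, a complement gene of macrophages, changed by 0.18 in KO cells and by 2.72 in WT cells (adjusted p = 0.024). *Col6a2*, a collagen VI chain, changed by 1.35 in KO and by 4.19 in WT cells, with group means of 440.1 in KO day 15, 150 in WT day 8 and 2737 in WT day 15 cells (adjusted p = 0.024).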

How the data were processed

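RNA of WT and *Terc*-/- cells was hybridised to Affymetrix 430 2.0 arrays, 2 in each of 6 groups. The authors deposited linear intensities, 1 value for each probe set, made with MAS5 as the submitters' processing notes say and with CapitalBio software as the paper's methods say, with version and settings not stated. Later arrays had medians of 50.6 to 53.1 and those of day 0 medians of 114 to 117, so the 2 sets carry different scales.

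Of 45101 probe sets, 64 controls were removed. Of the others 34945 carried 1 symbol, 932 several and 9160 none. Genes were named from the platform annotation, and 34741 probe sets matched RefSeq genes, whose table (GRCm38.p6) served for names and gene order only, since the files name no genome build.

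Intensities under 1 were set to 1 and taken to log2. The 8 arrays of days 8 and 15 were fitted in limma 3.58.1 (statmod 1.5.0, R 4.3.3) with a mean for each group, without the replicate number as a block, the variance prior following intensity and fitted robustly. Tests were two-sided, and p-values were adjusted by Benjamini-Hochberg over 45037 probe sets with a threshold of 0.05. A gene lay outside both WT days where it passed against each in the same direction. Intervals are 95% intervals of the same fit. Tables were made in pandas 2.3.3 and numpy 2.4.6 under Python 3.11.15, and plots in matplotlib 3.10.9.

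Genes were named by rule: up to 10 each way by size against WT day 8, up to 10 each way outside both WT days, and up to 8 each way on the WT course, with a mean of at least 200 in the higher group, up to 4 a list by p, and genes the paper names. The 22 lists hold 321 genes, of which 304 were measured. The members and lists were chosen with earlier results of these data known. The fit was tested on simulated data (200 changed probe sets above the median WT day 8 level, 10 runs). The alternatives were quantile normalization, median centring, an offset of 32, only the brighter probe sets (above the median of their mean log2 value), a plain variance prior, a replicate block, all 12 arrays, only the arrays compared, each array left out, the mean over a gene's probe sets, 1 probe set per gene, the 2-group test of the paper's methods, a 1.8-fold rule, and, added after seeing the data, leaving out chromosome 6.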

Additional observations from a re-analysis of the deposited data

Results flagged for a closer look

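The change from day 8 to day 15 differed between KO and WT cells at 29 probe sets by the interaction term of the limma fit (adjusted p under 0.05), 3 with a higher and 26 with a lower change in KO cells. As genes, *Fgf13* and *Zfp365* were the 2 whose KO change was above the WT change. *Fgf13*, a growth factor homolog of neurons, changed by -0.55 in KO cells and by -2.02 in WT cells (adjusted p = 0.0499), and *Zfp365*, a zinc finger gene, by 0.37 in KO cells and by -1.71 in WT cells (adjusted p = 0.024). The late KO means were 191 for *Fgf13* and 284 for *Zfp365*, against 309.7 and 164 in WT day 8 cells and 76.3 and 50.5 in WT day 15 cells. The 16 genes with a lower KO change were *C1qa*, *Ccl12*, *Col6a2*, *Emp2*, *Fcgr3*, *Iigp1*, *Kcne3*, *Nfix*, *Sfrp1*, *Sfrp2*, *Slc14a1*, *Sned1*, *Sparcl1*, *Sspn*, *Tle2* and *Vstm4*. The chemokine gene *Ccl12* changed by 0.01 in KO cells and by 2.65 in WT cells (adjusted p = 0.0036), with means of 5.46 in KO day 15, 5.56 in WT day 8 and 35.1 in WT day 15 cells. For *Sfrp1*, a secreted inhibitor of Wnt signaling, the late KO mean lay between those of the WT days, with means of 1072 in KO day 15, 979 in KO day 8, 419.9 in WT day 8 and 1987 in WT day 15 cells. With quantile normalization 16 probe sets had a lower KO change, and with only the brighter probe sets 0 did.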

How the results depend on the processing

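None of the 46 named genes that passed changed direction under the settings tried, and for the other probe sets only counts were compared. Probe sets higher and lower in KO day 15 than in WT day 8 cells (232 and 373) were 507 and 783 with all 12 arrays fitted, 36 and 23 with only the 4 arrays compared, 366 and 619 by the 1.8-fold rule, and 2213 and 1626 by the methods' 2-group test at an unadjusted p under 0.05, of which 0 and 0 passed Benjamini-Hochberg. Without the genes of chromosome 6, 147 were lower, 53 were below both WT days and 51 were lower at KO day 8 than at WT day 8. With all 12 arrays, 2904 were higher against WT day 15, 8 were higher at KO day 15 than at KO day 8, 231 and 277 were higher and lower between KO and WT cells at day 8, 271 lay above both WT days, and 62 and 128 changed more and less in KO cells. With only the arrays compared, 265 and 102 were higher and lower between WT day 15 and day 8, 656 and 617 between the KO days, 0 and 0 between KO and WT cells at day 8, and 48 and 54 lay above and below both WT days. Between the KO days (2 higher, 1 lower), 1 was higher with quantile normalization, 0 and 2 were higher and lower with the offset, and 0 and 0 with only the brighter probe sets or with a plain variance prior. With only the brighter probe sets, 78 were higher in KO than in WT cells at day 8. The changes that differed between genotypes (3 higher, 26 lower) were 1 and 16 with quantile normalization, 46 lower with the offset, 0 and 0 with only the brighter ones, and 1 and 12 with a plain variance prior. The mean r of late KO and WT day 8 arrays was 0.969 over the brighter probe sets. The share of genes nearer WT day 8 was 85.3% (rose) and 68.9% (fell) with median centring, and 81.1% (fell) with quantile normalization. With the mean over probe sets the list medians were -0.12 (erythroid) and -0.042 (endothelium). The causes were not tested.

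Leaving out 1 array at a time gave, for higher and lower probe sets, 0 to 475 and 1 to 1026 between KO day 15 and WT day 8, 150 to 3187 and 187 to 3206 between KO day 15 and WT day 15, 881 to 3102 and 637 to 4370 between the WT days, 0 to 21 and 0 to 3 between the KO days, 0 to 601 and 0 to 1107 between KO and WT cells at day 8, 0 to 297 and 1 to 422 outside both WT days, and 0 to 450 and 0 to 381 for the change over time. The share nearer WT day 8 was 72.4% to 90.0% (rose) and 56.9% to 84.8% (fell). An array left alone in its group was assumed to vary like those of the other groups.

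Same-numbered arrays of different groups deviated together with r values of -0.16 to 0.24, the highest for WT day 8 with KO day 15. With so few arrays in a group, these values cannot decide whether replicate numbers pair the samples. With a replicate block 227 probe sets passed as higher and 344 as lower in KO day 15 than in WT day 8 cells, 5 were higher between the KO days, and 1 and 14 changed more and less in KO cells. Of the 46 named genes that passed, 37 still passed with the block.

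Of the 46, the calls lost numbered 8 with quantile normalization, 1 with median centring, 7 with the offset, 5 with a plain variance prior, 4 with all 12 arrays, 32 with only the arrays compared and 12 without chromosome 6. Of the named genes that had not passed, 12 passed in at least 1 of these fits, most often *Lefty1* (4 of 9) and *Hoxb1* (3 of 9). With 2 arrays a group, most changes set at 1.8-fold or 2-fold in the simulated data were not recovered, even though they were set in the brighter probe sets.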

Other observations

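Further values concern the Y chromosome and the lines at day 0. Of 9 measured Y-linked genes, 2 were higher in KO day 15 than in WT day 8 cells, where 0.742% of all genes were higher. Both lay above both WT days, and both are named after their values were seen. *Kdm5d*, a histone demethylase gene, read 142 and 146 in KO day 15 cells, against 54.7 and 58.8 in WT day 8 cells (log2 1.34, adjusted p = 0.0071 in limma), and *Uba1y*, a ubiquitin-activating enzyme gene, read 73.8 and 80.2 in KO day 15 cells, against 37.7 and 38.5 in WT day 8 cells (log2 1.01, adjusted p = 0.014). Of the other probe sets of these genes, 2 for *Kdm5d* and 1 for *Uba1y*, none passed against WT day 8. *Eif2s3y*, a translation factor gene, differed from WT day 8 by 0.27 on the log2 scale and did not pass, and neither did the Y-linked gene *Uty* (0.25). Against WT day 15 both were higher (log2 0.74 and 0.71, adjusted p = 0.010 and 0.042).

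At day 0, on the scale of those arrays, the KO line A49 had higher values than line F35 for *Meg3* and *Rian* of chromosome 12, chosen after their values were seen. *Meg3* read 2580.4 in A49 and 1565 in F35, against 1049 and 1459.6 in the WT lines, and *Rian* read 351 in A49 and 163 in F35, against 146 and 218 in the WT lines. For *Kdm5d* the values were 336 in A49 and 143 in F35, against 109.8 and 118 in the WT lines. Each of these values is 1 array, with no replicate of a line. The labels do not name the line of the later KO arrays. The paper calls the KO cells of its arrays G4 and lists A49 as its G4 line.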
